A study of Mus musculus with 29 samples.

Results

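The regions described here carry acetylation of histone H3 at lysine 27 (H3K27ac), a mark of active enhancers and promoters, in microglia of mice without the transcription factor IRF8, and had no H3K27ac peak in wild-type (WT) microglia. They were chosen by the H3K27ac peak lists themselves: a region had to be a merged peak present in both knockout (KO) libraries and to overlap no peak, by even 1 bp, in either WT library. Of 10555 KO consensus regions, 1154 met this rule (10.9%), and 9401 overlapped a WT peak. The absence of WT H3K27ac and the presence of KO H3K27ac at the 1154 KO-only regions are therefore the rule and not a result. The rule used no list of another target, no position and no sequence. A lack of H3K27ac in WT microglia can nevertheless go with a lack of IRF8, PU.1 or H3K4me1 in microglia that have IRF8, so low shares there are not independent of the choice.

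IRF8 (interferon regulatory factor 8) is a transcription factor of macrophages and related immune cells. It binds DNA weakly alone and is known to act together with the lineage factor PU.1, an ETS family protein that opens enhancers throughout the macrophage lineage. Microglia are the resident macrophages of the brain; the brain's borders (meninges, choroid plexus and vessel walls) hold other macrophages, the border macrophages, which express genes that microglia normally keep low. H3K4me1, a methyl mark on lysine 4 of the same histone, covers enhancers whether or not they are active, so that H3K27ac and H3K4me1 read together tell acetylated enhancers from marked ones without acetylation.

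CUT&RUN, in which an antibody guides a nuclease to a chromatin protein so that the DNA around it is released and sequenced, was applied to FACS-sorted cells from female mice. H3K27ac, H3K4me1 and PU.1 were mapped in microglia of 3-month-old WT mice and IRF8KO mice, with 2 libraries for each target and genotype. The IRF8 libraries came from the IRF8-EGFP strain, where an antibody against GFP recognises IRF8 through its tag. They cover microglia at 3 ages, with 4 libraries of postnatal day 9 (P9), 3 of postnatal day 14 (P14) and 3 of adults aged 3 months. A further 3 are from peritoneal macrophages, which live in the abdominal cavity, of mice aged 3 months. Their source label names microglia and the title was followed. Per the labels, the KO H3K27ac libraries are 2 of 3 that were made and the P9 libraries 4 of 7. Nothing in the labels says whether libraries of a group came from different animals, so the spread between them may be technical. RNA was not analysed here, and the loss of IRF8 in the KO libraries was therefore taken from the labels. The 25 libraries held between 7250496 and 24705885 fragments.

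The H3K27ac libraries were unequal. KO replicate 1 had 14670239 fragments and 88400 peak regions, and KO replicate 2 had 8572250 fragments and 31524 regions. The WT libraries had 20229780 and 15448234 fragments, with 72354 and 72875 regions, and all 4 were called against the same IgG control. The number of KO-only regions depended on each of these libraries. It was 1854 without WT replicate 1, 1488 without WT replicate 2, 17502 when KO replicate 2 alone was used and 49429 when KO replicate 1 alone was used. Regions that 1 KO library alone holds are therefore many times more frequent than those that both hold, and the 1154 are the part that repeated.

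The sequences at the middle of some of these regions are given first, so that the positions named below can be read against the DNA. The first set holds the KO-only regions at the start of Sorbs3 and of Sirpb1a, which were among those with the strongest H3K27ac in both KO libraries, and 4 regions at genes of border macrophages (Ms4a7, Cd163, F13a1 and Clec12a). Each is the 200 bp around the centre of the region on the plus strand of GRCm38.p6 (mm10), credited to RefSeq, written 5′ to 3′. Capitals mark a match to one of 6 short motifs searched on both strands: GGAAGT (the core bound by PU.1 and other ETS factors), GGAANNGAA (a composite ETS-IRF site), GAANNGAAA (an interferon-response-like site, whose letters overlap those of the composite), TGANTCA (AP-1), TTGCNNAA (C/EBP) and CACGTG (E-box). Of these windows, that of Sorbs3 held GAANNGAAA, that of Sirpb1a TTGCNNAA on the minus strand and that of Ms4a7 GGAAGT. The other windows held none of the 6.
Sorbs3 centre, chr14:70212148-70212347: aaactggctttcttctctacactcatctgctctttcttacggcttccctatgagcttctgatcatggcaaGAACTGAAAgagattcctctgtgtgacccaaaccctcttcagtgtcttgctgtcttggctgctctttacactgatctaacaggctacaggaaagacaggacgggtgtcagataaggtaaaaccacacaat
Sirpb1a centre, chr3:15427257-15427456: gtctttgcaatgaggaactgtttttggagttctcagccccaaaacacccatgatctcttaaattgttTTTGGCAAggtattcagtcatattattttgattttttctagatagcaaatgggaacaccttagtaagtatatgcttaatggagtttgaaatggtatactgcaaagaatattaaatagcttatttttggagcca
Ms4a7 centre, chr19:11324268-11324467: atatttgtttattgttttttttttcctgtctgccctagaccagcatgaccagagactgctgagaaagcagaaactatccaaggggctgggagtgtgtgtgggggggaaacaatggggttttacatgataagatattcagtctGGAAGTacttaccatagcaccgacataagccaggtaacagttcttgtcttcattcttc
Cd163 centre, chr6:124320974-124321173: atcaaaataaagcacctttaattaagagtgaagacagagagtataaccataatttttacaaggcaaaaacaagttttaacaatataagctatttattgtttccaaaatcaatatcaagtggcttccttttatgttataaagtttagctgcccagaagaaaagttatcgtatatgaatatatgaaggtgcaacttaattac
F13a1 centre, chr13:37035554-37035753: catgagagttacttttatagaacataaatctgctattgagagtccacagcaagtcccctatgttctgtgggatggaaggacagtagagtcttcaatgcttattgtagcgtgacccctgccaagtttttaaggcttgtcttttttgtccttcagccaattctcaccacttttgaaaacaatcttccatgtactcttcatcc
Clec12a centre, chr6:129350589-129350788: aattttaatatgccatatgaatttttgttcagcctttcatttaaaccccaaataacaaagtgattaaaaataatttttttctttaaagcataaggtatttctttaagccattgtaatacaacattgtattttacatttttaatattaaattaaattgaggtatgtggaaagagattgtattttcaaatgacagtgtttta

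The second set shows 4 KO-only regions at the summit of their KO PU.1 peak, because the summit lies closer to the bound DNA than the middle of a broad H3K27ac region. The placement at the summit and the choice of these 4 were made after the data were seen. Summit windows of other named regions, among them Sorbs3 and both Clec12a regions, held none of the motifs, while these 4 each held 1. Again each is 200 bp of the plus strand of GRCm38.p6 and capitals mark the same motifs, here GGAAGT in the windows named for Scgb2b26 and Aqp9, TTGCNNAA in that for Gpr65 and GGAANNGAA in that for Gm28710. The names are those of the nearest protein-coding start, which lies 2054 bp away for Aqp9 and 51525 bp, 87324 bp and 181617 bp away for Gpr65, Scgb2b26 and Gm28710.
Scgb2b26 PU.1 summit, chr7:33857856-33858055: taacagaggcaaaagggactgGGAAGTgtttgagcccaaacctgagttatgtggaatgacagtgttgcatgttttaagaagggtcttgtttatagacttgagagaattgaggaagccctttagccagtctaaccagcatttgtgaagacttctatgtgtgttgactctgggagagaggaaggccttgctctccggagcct
Aqp9 PU.1 summit, chr9:71165025-71165224: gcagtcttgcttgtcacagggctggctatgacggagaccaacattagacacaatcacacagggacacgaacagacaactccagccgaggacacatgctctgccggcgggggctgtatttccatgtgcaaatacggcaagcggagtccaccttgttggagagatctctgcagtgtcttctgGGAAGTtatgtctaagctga
Gpr65 PU.1 summit, chr12:98320596-98320795: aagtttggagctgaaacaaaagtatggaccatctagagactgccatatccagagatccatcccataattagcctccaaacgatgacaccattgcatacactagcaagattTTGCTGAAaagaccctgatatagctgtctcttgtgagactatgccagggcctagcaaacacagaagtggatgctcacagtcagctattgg
Gm28710 PU.1 summit, chr5:16973483-16973682: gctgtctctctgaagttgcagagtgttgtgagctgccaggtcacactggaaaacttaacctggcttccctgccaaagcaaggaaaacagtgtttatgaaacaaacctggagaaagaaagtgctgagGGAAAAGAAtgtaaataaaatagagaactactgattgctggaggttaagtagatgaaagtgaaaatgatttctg

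KO-only regions were narrower and less enriched than shared regions and lay farther from transcription starts. Their median width was 909.5 bp (quartiles 635 and 1315 bp), against 1526 bp for the KO regions shared with WT and 1194 bp for 12491 WT consensus regions that had no KO peak (WT-only regions). The authors' fold enrichment over the IgG control had a median of 4.65 in KO replicate 1 and 4.79 in KO replicate 2 at KO-only regions, and 6.08 and 5.27 at shared regions. Within their own lists, KO-only regions stood at a median percentile of 57.0 and 51.5, and shared regions at 84.7 and 63.8. These strengths belong to the H3K27ac data that chose the regions and are given as a description only.

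The centre of a KO-only region lay at a median of 26552 bp from the nearest protein-coding start, against 14943 bp for shared and 23581 bp for WT-only regions. Within 1 kb of a start lay 51 KO-only regions (4.42%), 1831 shared regions (19.5%) and 1550 WT-only regions (12.4%), counting the starts of all protein-coding transcripts. When the starts of noncoding transcripts were counted too, these shares were 8.49%, 25.2% and 16.8%. Of the other KO-only regions, 560 had their centre in an intron (48.5% of all), 486 between genes (42.1%) and 57 in an exon (4.94%). The corresponding shares were 46.0%, 31.5% and 3.01% at shared regions and 45.1%, 39.1% and 3.37% at WT-only regions. A distance of more than 50 kb separated 401 KO-only regions (34.7%), 33.2% of the WT-only and 23.9% of the shared regions from any protein-coding start. KO-only regions thus held fewer promoters than either other class, and no test was attached to this because width and strength differed between the classes as well. The KO-only share within 1 kb of a start was 7.77% without WT H3K27ac replicate 1 and 2.83% without KO replicate 1.

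**Figure D1:**
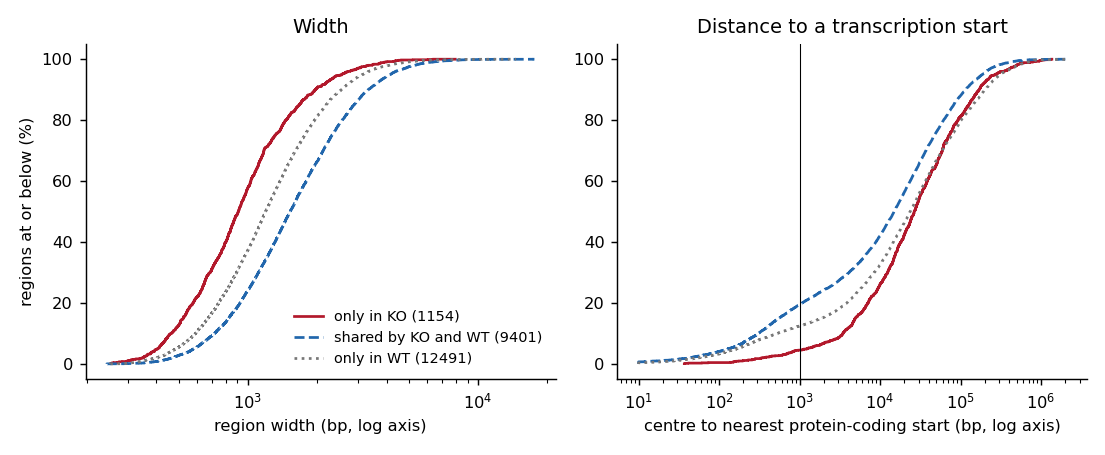
Cumulative share of regions (y axis, percent) by width (left, bp on a log axis) and by distance from the region's centre to the nearest protein-coding transcription start (right, bp on a log axis, distances under 10 bp drawn at 10 bp), for 1154 KO-only, 9401 shared and 12491 WT-only regions. The KO-only curve lies to the left for width, with a median of 909.5 bp, and below the other curves at the vertical line at 1 kb, where it stands at 4.42%.

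Many KO-only regions had a WT peak nearby. The nearest WT H3K27ac peak lay at a median of 3959 bp, 249 KO-only regions (21.6%) had one within 1 kb and 639 (55.4%) within 5 kb. At the edge of the rule, the closest KO-only region was 1 bp away from a WT peak, and the shared region with the least overlap shared 3 bp. Among the shared regions, 41 overlapped WT peaks by less than 100 bp and 1034 had a peak in only 1 of the 2 WT libraries. Removing every KO-only region with a WT peak within 1 kb left 905.

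The chromosomes held similar shares, with exceptions. On chromosome X, 25 of 125 KO regions were KO-only (20%), and on chromosome 15, 68 of 466 (14.6%). The other autosomes ranged from 8.52% on chromosome 9 to 12.6% on chromosome 11. The 25 regions on chromosome X had a median width of 1030 bp, and 21 of them carried KO H3K4me1, as did 50 of the 68 on chromosome 15 and 77.9% of all KO-only regions.

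The KO-only regions with the strongest H3K27ac included 2 promoters, and 4 of the 10 strongest had no protein-coding gene within 10 kb. The highest mean percentile over the 2 KO lists belonged to chr14:70211045-70213452, 259 bp upstream of the start of Sorbs3, which encodes the cytoskeletal adaptor vinexin. Its fold enrichment was 11.5 in KO replicate 1 and 12.9 in KO replicate 2. It had no PU.1 peak in either WT library and folds of 10.2 and 6.43 in the KO libraries, and IRF8 peaks of 7.70-fold, 7.95-fold and 3.88-fold in the macrophage libraries with none in adult microglia. H3K4me1 was present there in every library, at 2.57-fold and 2.50-fold in WT and 4.08-fold and 4.79-fold in KO. This one region thus combined PU.1 in KO only with IRF8 in macrophages only.

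At the start of Sirpb1a, a receptor gene of the signal-regulatory protein family, chr3:15425819-15428896 had H3K27ac folds of 10.4 and 9.10. IRF8 folds in macrophages were 7.56, 2.83 and 3.81, with no peak in adult microglia and none of PU.1 in any library. Its H3K4me1 was called in WT replicate 1 only (2.12-fold) and in both KO libraries (5.02-fold and 6.14-fold). The start of the neighbouring family member Sirpb1c carried a further KO-only region, chr3:15848288-15849164, with H3K27ac folds of 7.51 and 4.79, H3K4me1 in both KO libraries (4.36-fold and 4.35-fold), none in WT, and IRF8 in 2 macrophage libraries. These genes are near-identical copies, and the sources used here do not say how reads matching several copies were placed, so the copy that carries the signal is uncertain.

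Of the other 8 strongest regions, named here by the nearest protein-coding start, 5 had neither PU.1 nor IRF8 in any library, with H3K27ac folds between 8.23 and 17.9. They lay in an intron of Pcnx, 6685 bp from the start of Tm4sf5, 41480 bp from that of Rasa2 (a GTPase-activating protein of Ras), 89332 bp from that of Nectin3 (a cell adhesion protein) and 184880 bp from that of Pik3c3 (the class III phosphoinositide 3-kinase). The region whose nearest start was that of Scgb2b26, at 87324 bp, had PU.1 in both KO libraries (6.59-fold and 4.40-fold) and in neither WT library. A region in Syne1 (nesprin 1) had an IRF8 peak in 1 adult library. The region 51525 bp from the start of Gpr65, a proton-sensing receptor, spanned 4611 bp, lay 318 bp from a WT peak and had PU.1 in KO replicate 1 only (4.03-fold). H3K4me1 was higher in fold in both KO libraries than in each WT library with a peak at all 8 of these regions.

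A group of listed genes with many KO-only regions was that of the border macrophages. Of 10 border macrophage markers, 6 had a KO-only region within 10 kb of the gene: Mrc1 (the mannose receptor CD206), Pf4 (the chemokine CXCL4), Cd163 (the scavenger receptor for haemoglobin), F13a1 (coagulation factor XIII A), Ms4a7 and Clec12a (a C-type lectin receptor). Over all protein-coding genes the share was 825 of 21924 (3.76%). Cbr2, Folr2, Lyve1 and Stab1 had none. The median length of the 10 genes was 19.9 kb, against 17.4 kb for all genes, although F13a1 (183 kb) and Mrc1 (103 kb) are long. The count was 6 without WT replicate 1 and without WT replicate 2, and up to 9 without a KO replicate, where the regions rest on 1 KO library. It was 5 with H3K27ac lists of equal length and 2 when only H3K27ac peaks with a −log10 p of at least 10 were used.

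At these genes the other targets differed from region to region. At its start F13a1 had an H3K27ac peak of 8.83-fold in WT replicate 2 and of 4.65-fold in KO replicate 1, with none in the other 2 libraries. Its KO-only region, chr13:37034800-37036509 in an intron, had H3K27ac folds of 5.37 and 5.75, PU.1 in both KO libraries (5.86-fold and 3.36-fold) and in neither WT library, and H3K4me1 in both KO libraries (3.97-fold and 2.88-fold) and in neither WT library. At the start of Clec12a, chr6:129349474-129351904 had modest H3K27ac (5.37-fold and 3.83-fold) under strong KO PU.1 peaks of 13.2-fold and 10.3-fold. WT microglia had no PU.1 peak there, and macrophages had IRF8 at 15.1-fold and 11.0-fold in replicates 1 and 2 with none in replicate 3. A further Clec12a region, chr6:129363666-129364647, had PU.1 in KO replicate 1 only (6.59-fold) and IRF8 in the same 2 macrophage libraries.

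Ms4a7, a membrane protein of the MS4A family, had a KO-only region at the start of its shortest protein-coding transcript (chr19:11323325-11325411, H3K27ac folds of 6.80 and 5.27) and another centred 3481 bp downstream of that start (chr19:11320799-11321495, folds of 7.51 and 7.66). WT replicate 2 had an H3K27ac peak of 3.71-fold at another annotated start of the gene. Both KO-only regions lay in H3K4me1 called in the 2 KO libraries (4.06-fold and 3.58-fold) and in neither WT library. The second also had IRF8 in macrophage replicates 1 and 2. The region in Cd163 (chr6:124319688-124322461, folds of 8.59 and 6.23) had H3K4me1 in WT replicate 1 and both KO libraries and IRF8 in 1 macrophage library. Those at Mrc1 (chr2:14269207-14269933) and within 10 kb of Pf4 (chr5:90778435-90780384, with the start of Cxcl3 nearest and Ppbp also within 10 kb) had neither PU.1 nor IRF8. The 4 genes with PU.1 or IRF8 at a KO-only region were F13a1, Clec12a, Ms4a7 and Cd163.

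The makeup of the sorted cells was measured by H3K27ac peaks at the starts of marker genes. Border macrophage markers had such a peak at 4 and 6 of 10 genes in the WT libraries and at 7 and 6 in the KO libraries. Their summed fold was 19.5 and 36.4 in WT and 45.8 and 36.9 in KO, so that WT replicate 2 and KO replicate 2 were nearly equal. The genes did not move together. Mrc1 was higher in both KO libraries (8.95-fold and 6.71-fold) than in both WT libraries (3.74-fold and 4.58-fold), as was Pf4, and Clec12a had a peak in KO only. Stab1 was at 6.48-fold and 9.16-fold in WT and 5.72-fold and 7.19-fold in KO, Folr2 had a peak in both WT libraries and in KO replicate 2, and Cbr2 in KO replicate 1 only. Cd163 and Lyve1 had none in any library. Microglia identity genes had a peak at 19 of 20 in each WT library and at 14 and 10 in the KO libraries, the second being the shallowest. A peak in both WT libraries and in neither KO library was found at Sall1, Cx3cr1, Aif1 and Slc2a5, while 9 of the 20 had one in both KO libraries, among them P2ry12, P2ry13, Csf1r, Siglech, Gpr34 and Sparc. Of other cell types, endothelium markers had a peak at 3 and 3 of 8 genes in WT and 1 and 0 in KO. Astrocyte markers had 2 and 3 of 8 against 1 and 1, and oligodendrocyte markers 3 and 2 of 10 against 1 and 0. Neuron markers had 1 and 0 of 10 in each genotype, lymphocyte markers 1 and 4 of 12 in WT and 3 and 1 in KO, and peritoneal macrophage genes 4 and 3 of 12 in WT and 5 and 2 in KO. Whether border macrophages or other cells among those sorted had a part in the KO-only regions was not tested, and a change within microglia and a change in which cells were sorted cannot be told apart in these bulk samples.

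Other gene lists held few KO-only regions. Microglia identity genes had 2 of 20 with a KO-only region within 10 kb (Cx3cr1 and Slc2a5), and for Cx3cr1 its centre was closest to the start of the neighbour Gorasp1. Cell cycle genes had 2 of 12 (Mki67 and Ccnd2). A single gene each was found among disease-associated microglia genes (Gpnmb, 1 of 19), peritoneal macrophage genes (Rarb, 1 of 12), interferon-stimulated genes (Ifit3, 1 of 16), AP-1 and stress factors (Bach2, 1 of 16), lipid and lysosome genes (Ctss, 1 of 16) and oligodendrocyte genes (Olig1, 1 of 10). Inflammatory cytokines and chemokines (0 of 16), interferon regulatory factors (0 of 9), MHC class II (0 of 8), dendritic and granulocyte lineage genes (0 of 12) and lymphocyte markers (0 of 12) had none. Neuron, astrocyte and endothelium lists had none either (0 of 10, 0 of 8 and 0 of 8).

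**Figure D2:**
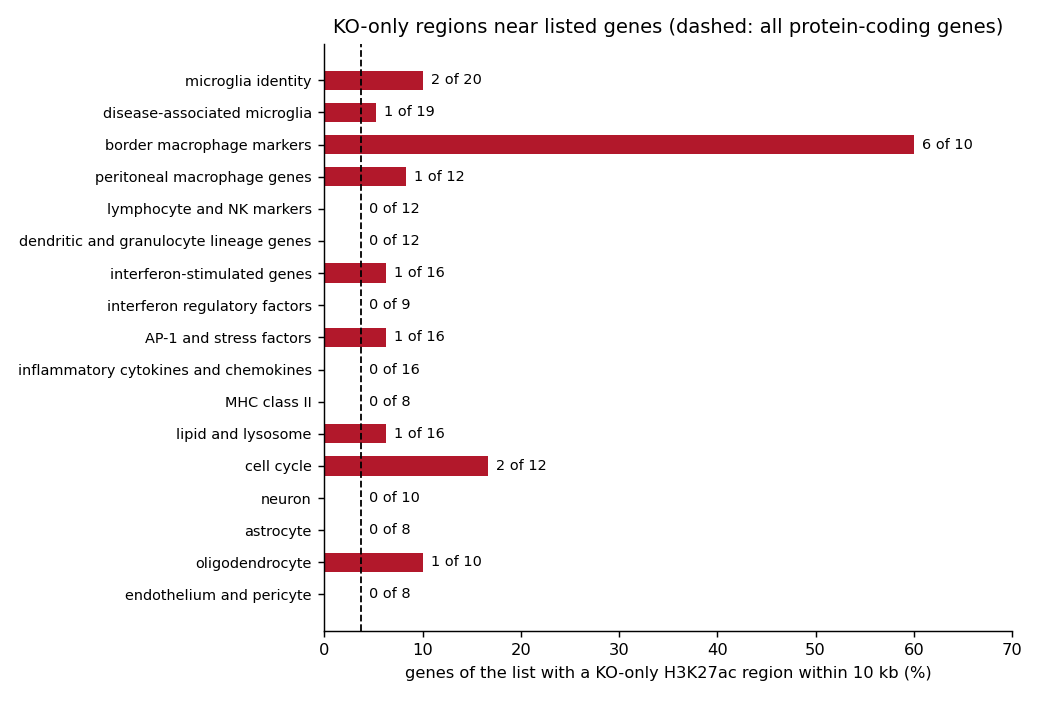
Percent of the genes of each of 17 lists (x axis) with a KO-only H3K27ac region within 10 kb of the gene, with the number of genes beside each bar and the share over all protein-coding genes, 3.76%, as a dashed line. Border macrophage markers stand at 6 of 10, and the other lists at 2 genes or fewer.

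Some genes held several KO-only regions. Trps1, a zinc finger repressor of the GATA type, held 7 within its 236 kb or 10 kb around it, beside 5 shared regions and no WT-only region. At its start, chr15:50826648-50828543 had H3K27ac folds of 5.37 and 5.75 and IRF8 in 2 macrophage libraries (4.17-fold and 3.97-fold) and 1 adult library (6.52-fold). Another of the 7, chr15:50840172-50842345, had the strongest macrophage IRF8 among them, at 12.2-fold, 13.8-fold and 7.09-fold, and an IRF8 peak in 1 adult library (4.15-fold). Of the 7, 5 had IRF8 in at least 1 macrophage library and 3 had PU.1 in a KO library. Colec12 (a scavenger receptor of the collectin family) and Cyth1 (an exchange factor for Arf proteins) held 5 each. Another 6 genes held 4 each. Of these, Gnat3, Hbs1l and Gab3 had no shared and no WT-only region, as at Colec12, while Sgms1 had 6 shared and 5 WT-only regions, Itpr1 had 2 and 3, and Rims2 had 1 and 1. These are counts of regions and not of independent events, since neighbouring regions can be pieces of 1 domain.

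H3K4me1 already covered many of these sites in WT microglia and covered more of them in KO. A WT H3K4me1 peak was found at 46.2% and 42.4% of the KO-only regions in the 2 WT libraries, and a KO peak at 65.6% and 70.1% in the 2 KO libraries. The groups did not overlap. At shared regions the corresponding values were 95.9% and 94.0% in WT and 96.2% and 97.0% in KO. At WT-only regions the order was the other way, with 82.8% and 78.1% in WT and 66.2% and 71.9% in KO. The difference in H3K4me1 thus had the direction of the H3K27ac difference that defines each class. With 2 libraries against 2 the smallest exact p is 0.33, so no test was made.

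Both shares depended on the KO H3K27ac libraries. H3K4me1 in at least 1 library was found at 58.8% in WT and 77.9% in KO, at 28.2% and 39.2% of the regions drawn without KO H3K27ac replicate 1, and at 35.3% and 49.9% without replicate 2.

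By region, 604 KO-only regions (52.3%) had H3K4me1 in a library of each genotype, 295 (25.6%) in KO only and 74 (6.41%) in WT only, while 181 (15.7%) had none in any library. H3K4me1 in both KO libraries and in no WT library marked 151 KO-only regions (13.1%), where the same pattern was found at 2.28% of all 10555 KO H3K27ac regions. Where a peak was present, its fold enrichment at KO-only regions had a median of 2.47 and 2.27 in the WT libraries and 3.30 and 3.16 in the KO libraries. At shared regions those medians were 3.80 and 3.07 in WT and 3.79 and 3.68 in KO. The H3K4me1 lists were called at a looser threshold than the others and KO replicate 2 was the deepest of them, with 23884530 fragments. KO replicate 1 had 15840411 fragments, and the WT libraries had 14538968 and 14119640. The part of depth in these shares was not tested.

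PU.1 peaks were rare at KO-only regions and almost all came from the knockout. In WT, 10 KO-only regions had one in replicate 1 and 6 in replicate 2 (0.867% and 0.520%). In KO, 62 and 58 had one (5.37% and 5.03%). At shared regions the shares were 35.3% and 28.4% in WT and 33.2% and 32.3% in KO, so that the PU.1 lists of the genotypes did not differ in this way there. WT-only regions had PU.1 at 12.3% and 8.12% in WT and at 4.64% and 4.96% in KO. Of 95 KO-only regions with PU.1 in any library, 83 had it in KO and not in WT (87.4%), 5 in WT and not in KO and 7 in both. Of 4984 shared regions with PU.1, the corresponding share in KO and not in WT was 23.2%.

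Those 83 regions are 7.19% of the KO-only regions, while PU.1 in KO and not in WT was found at 11.8% of all KO H3K27ac regions. PU.1 in KO and not in WT was thus less frequent per region at KO-only sites than over all KO sites, while fewer KO-only sites had PU.1 at all. PU.1 in both KO libraries and neither WT library was found at 25 KO-only regions (2.17%) and at 297 shared regions (3.16%). All 25 had H3K4me1 in a KO library, 22 had it in a WT library, 13 had IRF8 in at least 1 macrophage library and 1 had it in an adult microglia library. Besides those at Sorbs3 and Clec12a, they include an intergenic region on chromosome 5, chr5:16971822-16975033, with PU.1 folds of 8.05 and 8.42 and IRF8 in all 3 macrophage libraries (5.63-fold, 5.66-fold and 3.15-fold). They also include a region in Iqgap1, which encodes a cytoskeletal scaffold, with PU.1 folds of 6.59 and 5.78 and no IRF8, and one 2054 bp from the start of Aqp9, the gene of a channel for water and glycerol, with PU.1 folds of 4.03 and 3.03. Replicate 2 of PU.1 in both genotypes was called at a looser q-value and against another IgG control than replicate 1. Of the 90 KO-only regions with KO PU.1, 30 had it in both KO libraries, so most rest on 1 replicate. The share with KO PU.1 in either library, 7.80%, depended on both KO H3K27ac libraries: it was 1.29% when the regions were drawn without KO H3K27ac replicate 1 and 1.05% without replicate 2, with WT PU.1 at 0.731% and 0.429%. It was 15.7% with H3K27ac lists of equal length and 31.6% with H3K27ac peaks of −log10 p of at least 10, with WT PU.1 at 3.82% and 7.89%.

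IRF8 itself was seldom found at KO-only regions in microglia. In adult microglia 6, 34 and 20 of the 1154 regions had an IRF8 peak (0.520%, 2.95% and 1.73%), against 47.5%, 64.9% and 35.0% of the shared regions. In any adult library it was found at 4.33% of the KO-only and 68.3% of the shared regions. The KO-only share was 11.1% of the regions drawn without WT H3K27ac replicate 1, 11.6% with lists of equal length and 16.4% with H3K27ac peaks of −log10 p of at least 10. It was 1.65% without KO H3K27ac replicate 1 and 1.89% without KO replicate 2. At P14 an IRF8 peak was found at 4, 12 and 2 KO-only regions and at P9 at 0, 0, 1 and 0 regions. No IRF8 peak in any of the 13 libraries was found at 948 KO-only regions (82.1%), against 22.9% of the shared regions. Since microglia with IRF8 have no H3K27ac peak at these sites by the rule, these low shares are tied to the choice of regions.

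Peritoneal macrophages, which have IRF8, showed another pattern. There 142, 108 and 30 KO-only regions had an IRF8 peak (12.3%, 9.36% and 2.60%), and of the shared regions 43.0%, 36.7% and 11.7%. Replicate 3, from batch 2, had the fewest peaks in both classes. The share at KO-only regions divided by that at shared regions, which takes the size of each list into account, was 0.286, 0.255 and 0.223 in macrophages and 0.0109, 0.0454 and 0.0496 in adult microglia. The lowest macrophage library stood above the highest adult library on this ratio, and did not on the plain share. The rule asks for no H3K27ac in adult WT microglia and asks nothing of macrophages. A lower share in adult microglia at KO-only regions is therefore partly fixed by the choice of regions. Shared regions have H3K27ac in adult WT microglia by the rule, so the share that the ratio divides by is tied to the choice too. The ratio and the tests that follow are not independent of that choice.

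The mean share was 8.09% ± 4.98 (SD, n = 3) in macrophages and 1.73% ± 1.21 (SD, n = 3) in adult microglia. The difference of 6.35 percentage points had an exact two-sided permutation p of 0.2 (adjusted p = 0.32 over 8 comparisons). Within batch 1 the difference was 9.10 percentage points and within batch 2, with 1 library each, 0.867. For the log2 ratio to shared regions, the means were -1.96 ± 0.16 and -4.98 ± 1.12 (SD, n = 3 each), a difference of 3.02 with an exact p of 0.1, the smallest that 3 against 3 libraries allow (adjusted p = 0.267). That difference was 3.46 within batch 1 and 2.13 within batch 2. Neither comparison passed the threshold after adjustment. Macrophages and adult microglia were called against different IgG controls, so tissue and control cannot be told apart.

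Across the ages of microglia, the share of KO-only regions with IRF8 was 0.0217% ± 0.0433 at P9 (SD, n = 4), 0.520% ± 0.459 at P14 (SD, n = 3) and 1.73% ± 1.21 in adults (SD, n = 3). P14 and adult microglia each exceeded P9 in every library, with an exact permutation p of 0.029 for both, the smallest that 4 against 3 libraries allow (adjusted p = 0.114 for both). They also exceeded P9 at shared regions, with 4.38% to 7.70% at P9, 22.4% to 45.3% at P14 and 35.0% to 64.9% in adults. The lists held 1168 to 2068 peak regions at P9, 7931 to 19243 at P14 and 17048 to 29667 in adults. The 3 ages were called against different IgG controls, so age and control cannot be told apart. Adult against P14 gave an exact p of 0.2 (adjusted p = 0.32), with overlapping groups. The 8 comparisons together could not give an adjusted p below 0.0571, so none could pass 0.05. Relative to shared regions the order of the ages depended on the pseudocount. With 0.1 percentage points, the log2 ratio was -5.55 ± 0.17 at P9, -5.84 ± 0.53 at P14 and -4.98 ± 1.12 in adults, with exact permutation p of 0.371, 0.3 and 0.314 for P14 against P9, adult against P14 and adult against P9. With a pseudocount of 1, P14 and adults lay below P9 in every library, by differences of -1.72 and -1.61, each with an unadjusted exact permutation p of 0.029. At P9 the ratio rests on 0 or 1 region per library and is set by the pseudocount, so no order of the ages is read from it.

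**Figure D3:**
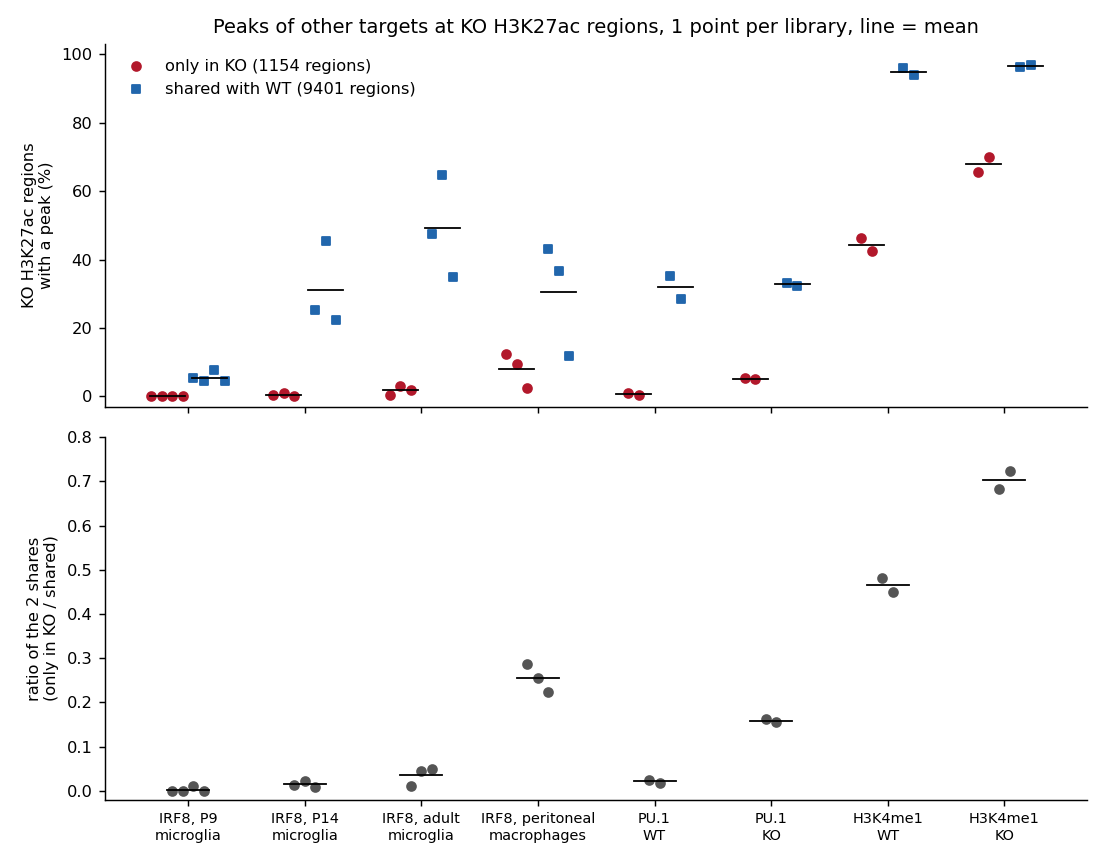
Top, percent of KO-only regions (circles) and of shared regions (squares) with a peak of each target (y axis), 1 point per library with a line at the mean. Bottom, the ratio of the 2 shares (y axis, no unit) in the same libraries. The ratio lies between 0.223 and 0.286 in the 3 macrophage libraries and at most at 0.0496 in the microglia IRF8 libraries. For PU.1 and H3K4me1 the KO points lie above the WT points at KO-only regions and for the ratio. At shared regions the KO points for PU.1 lie between the WT points.

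IRF8 in at least 2 macrophage libraries and in no adult microglia library was found at 84 KO-only regions (7.28%), and at 3.5% of all KO H3K27ac regions. Of the shared regions it was found at 285 (3.03%). IRF8 in at least 1 macrophage library was found at 168 KO-only regions (14.6%) and 4743 shared regions (50.5%). The KO-only share was 2.46% and 2.93% of the regions drawn without KO H3K27ac replicate 1 and without replicate 2, 26.0% with lists of equal length and 46.7% with H3K27ac peaks of −log10 p of at least 10. Macrophage IRF8 in all 3 libraries was found at 19 KO-only regions (1.65%) and 818 shared regions (8.70%), and adult IRF8 in at least 2 libraries at 7 KO-only (0.607%) and 4700 of 9401 shared regions. Macrophage IRF8 and KO PU.1 often met: 36 of 90 KO-only regions with KO PU.1 (40.0%) had IRF8 in a macrophage library, and 132 of 1064 without (12.4%). At shared regions these shares were 69.5% and 36.4%. Near starts, 17 of 51 KO-only regions had macrophage IRF8 (33.3%), and 151 of 1103 elsewhere (13.7%). The same order was found at shared regions (67.8% and 46.2%) and WT-only regions (45.9% and 15.7%). The widest KO-only regions also had it more often, with 62 of 219 at 1500 bp or more (28.3%) and 35 of 361 under 700 bp (9.70%). Shared regions of these widths had it at 57.5% and 36.8%, and WT-only regions at 24.9% and 12.4%.

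The other marks are set out by the strength of the KO H3K27ac, which belongs to the data that chose the regions, as a description. When KO-only regions were split into 4 classes of nearly equal size by their mean percentile in the 2 KO lists, a split chosen after the data were seen, macrophage IRF8 was found at 9.34%, 10.1%, 15.9% and 22.8% from the weakest to the strongest class. KO PU.1 was found at 3.46%, 5.23%, 8.65% and 13.8%. WT PU.1 showed no such order, at 1.04%, 0.348%, 1.73% and 1.04%, and adult IRF8 stayed between 3.14% and 5.54%. KO H3K4me1 went from 67.5% to 92.0% and WT H3K4me1 from 42.6% to 70.9%. Shared regions of the same strengths were bound more often throughout, for example by macrophage IRF8 at 35.0% and 56.6% and by WT PU.1 at 22.7% and 47.8% in the weakest and the strongest class.

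**Figure D4:**
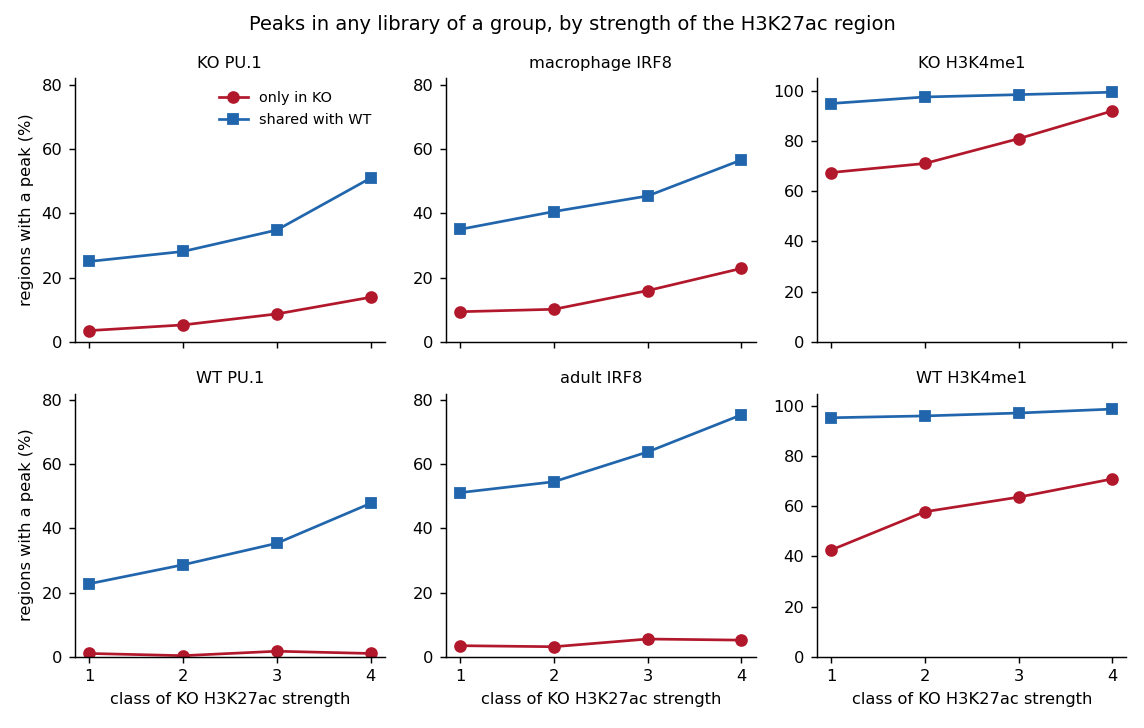
Percent of regions (y axis) with a peak in any library of a group, for KO-only (circles) and shared regions (squares), in 4 classes of KO H3K27ac strength bounded by the quartiles of the KO-only regions (x axis, 1 weakest). For KO-only regions KO PU.1 goes from 3.46% to 13.8% and macrophage IRF8 from 9.34% to 22.8%, while WT PU.1 and adult IRF8 stay at or below 5.54%.

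Across all 25 peak lists, a KO-only region was present in a median of 5 and a shared region in a median of 12, where shared regions are in at least 1 WT H3K27ac list by definition and KO-only regions in none. No list outside H3K27ac held 174 KO-only regions (15.1%), against 0.553% of the shared regions, and 723 (62.7%, against 18.8%) were found in H3K4me1 lists but in no transcription factor list. In 5 or more of the 21 other lists stood 173 of the 1154 KO-only regions and 7425 shared regions (79.0%). In at least 10 of the 25 lists were 18 KO-only regions (1.56%) and 67.4% of the shared regions. The most frequent was chrX:169977688-169979421 in 15 lists, 897 bp from the start of Mid1, a microtubule-bound ubiquitin ligase gene, with IRF8 in all 3 adult libraries (12.4-fold, 9.93-fold and 5.94-fold) and all 3 P14 libraries. It lay 647 bp from a WT peak. Those next in order lay near Trafd1 (13 lists, IRF8 in all adult and macrophage libraries), in Sh3bp2 (13 lists, PU.1 in both WT libraries) and near Spats2, in 12 lists. At Spats2 PU.1 was present in both genotypes, with 6.51-fold and 3.07-fold in WT and 22.1-fold and 14.6-fold in KO. At these few regions a lack of WT H3K27ac stood beside binding of IRF8 or PU.1 in microglia that have IRF8.

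**Figure D5:**
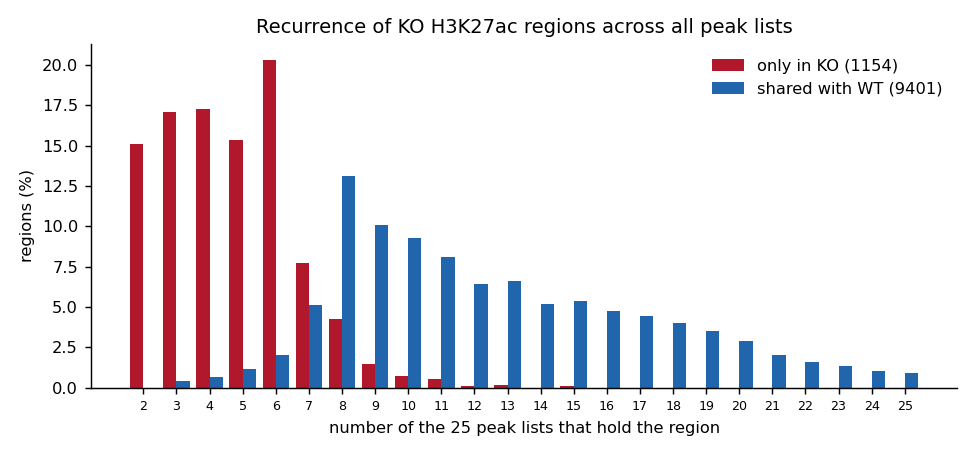
Percent of KO-only (1154) and shared (9401) regions (y axis) by the number of the 25 peak lists that hold them (x axis, 2 being the KO H3K27ac lists alone). KO-only regions end at 15 lists and have their median at 5, and shared regions have their median at 12.

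Among the 51 KO-only regions within 1 kb of a start, 41 had WT H3K4me1 (80.4%) and 10 had none. Of the shared regions near a start, 1799 of 1831 had it (98.3%). Besides Ms4a7 and Sirpb1c, the 10 include the starts of Thap4, with H3K4me1 in KO replicate 1, and of the olfactory receptor genes Olfr698 and Olfr693, which had no peak outside the KO H3K27ac lists. Olfactory receptor genes have close copies, so the copy that carries these peaks is as uncertain as for the Sirpb1 genes.

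The DNA of KO-only regions was poorer in G and C. In the central 200 bp the GC content was 42.8%, against 46.6% at shared regions, with 0.919 and 1.83 CpG per 100 bp. Bases masked as repeats in the RefSeq genome took 18.3% of the bases at KO-only centres and 15.5% at shared centres, and 26.0% and 23.4% at windows 1 kb away. The motif GGAAGT was found in 13.4% of KO-only centres, 11.9% of windows 1 kb away and 18.9% of shared centres. GGAANNGAA was found in 5.55% of KO-only centres and 5.81% of the windows away from them, and GAANNGAAA in 7.19% and 7.02%. TGANTCA was found in 7.71% and 5.63%, TTGCNNAA in 9.53% and 7.80%, and CACGTG in 2.77% and 2.60%. The IRF-type motifs were therefore as frequent at the centre of KO-only regions as beside it.

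The PU.1 core motif was more frequent at KO PU.1 summits than beside them, although most summits lacked it. GGAAGT lay within 100 bp of the summit at 20 of 82 KO-only regions with a KO PU.1 summit inside (24.4%), and at 9 of 82 windows 1 kb away (11.0%). At shared regions the shares were 24.3% and 12.1% of 3792. The windows printed above for the regions named for Scgb2b26 and Aqp9 are 2 of the 20. At 93 KO-only regions with IRF8 in at least 2 macrophage libraries, TTGCNNAA was found in 17 centres (18.3%), as in the printed window at Sirpb1a, and in 9.53% of 3033 shared regions with the same IRF8. Of the other motifs in the same windows, GGAAGT was found in 19.4% and 20.9%, GGAANNGAA in 5.38% and 8.34%, GAANNGAAA in 5.38% and 9.23%, and CACGTG in 2.15% and 2.93%, while TGANTCA was found in 11.8% and 7.78%. A match of letters is a description of the sequence and not a site shown to be bound.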

How the data were processed

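Peak lists of 25 CUT&RUN libraries were used as deposited, 1 list per library. Per the submitters' processing notes, reads were handled with bcl2fastq, Trim Galore, Bowtie2, deepTools and MACS2 on mm10. Per the file headers, peaks were called with MACS 2.2.7.1 (IRF8, PU.1) and 2.2.6 (histone marks) against an IgG control, with all duplicates kept and the larger dataset scaled to the smaller. The cut-off was a q-value of 0.01 (0.05 for PU.1 replicate 2 of both genotypes) with a maximum gap of 640 bp, and for H3K4me1 a p-value of 0.01 with broad peaks of at least 1000 bp. The deposited values are the authors' pileup (signal height), fold enrichment over the control and −log10 p and q per peak; q of H3K4me1 was not used.

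Entries of a list with the same start and end were counted once, with the highest −log10 p. Regions of both KO H3K27ac lists were merged into consensus regions, and any overlap of 1 bp or more counted as a peak. The adult IRF8 consensus holds regions merged from the 3 adult lists and present in at least 2 of them. Overlap with it is another measure than IRF8 peaks of at least 2 adult libraries at the region itself. A promoter is a region whose centre lies within 1 kb of a protein-coding start in GENCODE M21, and genes were linked to regions within 10 kb. Sequences are from the RefSeq copy of GRCm38.p6; all peaks lay within its chromosome lengths. Group shares were compared with exact two-sided permutation tests over libraries, 8 in all, with Benjamini-Hochberg adjustment; peak lists hold no counts, so no count test was run. The log2 ratio used a pseudocount of 0.1 percentage points. Alternatives covered the peak threshold, the overlap rule, list length, windows and leaving out each library. Scripts were tested on simulated data. The result of a further gene list is not reported here.

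The regions, gene lists and tests were chosen with earlier results of these data known. Regions are named where they had the highest mean percentile in the KO lists (10), PU.1 in both KO and no WT library (up to 10), a listed gene within 10 kb (up to 30), IRF8 in at least 2 macrophage and no adult libraries (up to 5), the most lists (5) or a promoter without WT H3K4me1 (up to 5), together with the 5 genes holding the most regions; genes tied with the last of these were added after the values were seen. Not all regions that met this rule are printed, and those printed from it were picked after their values were seen. Tools were Python 3.11.15, pandas 2.3.3, NumPy 2.4.6, SciPy 1.17.1, pysam 0.24.0 and matplotlib 3.10.9.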

Additional observations from a re-analysis of the deposited data

Results flagged for a closer look

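At P9, IRF8 replicate 3 stood apart from the other 3 libraries by Dixon's criterion in the share of WT-only regions with an IRF8 peak, at 2.16% against 1.14% to 1.30%. It was the deepest P9 library, with 20869014 fragments and 2068 peak regions against 1168 to 1366. The criterion was also met by its share of KO-only regions, 0.0867%, but this is 1 region where the others had none, and a single region always meets the criterion when the others are at 0, so nothing is read from it. Of 4 measures tested at P9, chance alone marks about 1 in 20.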

How the results depend on the processing

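Most values depended on how the KO-only regions were drawn. With only H3K27ac peaks of −log10 p of at least 10, there were 152 KO-only regions (8.03% of the KO regions), of which 46 overlapped one of the 1154. Of these, 5.92% lay within 1 kb of a start, 90.1% had WT and 98.7% KO H3K4me1, 7.89% WT and 31.6% KO PU.1, 46.7% macrophage IRF8 and 4.61% a region of the adult IRF8 consensus (0.780% of the 1154), and 2 border macrophage genes had one. When WT peaks had to cover at least 50% of a region to remove it, there were 1972 (18.7%), with values in the same order of 6.95%, 71.5%, 84.9%, 3.60%, 12.3%, 21.8% and 5.27%. With lists of equal length the share was 13.5% and these values were 6.54%, 78.7%, 91.2%, 3.82%, 15.7%, 26.0% and 4.02%; 450 of those 994 regions overlapped one of the 1154. Without regions that had a WT peak within 1 kb, the share was 8.57%, WT H3K4me1 53.9% and the adult consensus 0.331%. Under each of these 4 settings KO PU.1 and KO H3K4me1 stayed more frequent than WT PU.1 and WT H3K4me1. A window of 5 kb put 15.1% of KO-only regions near a start. A peak in every library of a group was found at 29.8% for WT and 57.8% for KO H3K4me1, 0.347% for WT and 2.60% for KO PU.1 and 1.65% for macrophage IRF8, and a peak in any adult library at 4.33%.

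Leaving out 1 library at a time gave 1488 to 49429 KO-only regions (14.1% to 55.9%), 2.83% to 7.77% within 1 kb of a start, 28.2% to 70.1% with WT and 39.2% to 83.9% with KO H3K4me1, 0.429% to 3.40% with WT and 1.05% to 9.76% with KO PU.1, 2.46% to 20.2% with macrophage IRF8 and 0.260% to 4.75% in the adult consensus. The lowest macrophage share, 2.46%, came without KO replicate 1, when regions rest on KO replicate 2 alone. The macrophage minus adult difference in share stayed between 4.25 and 9.10 percentage points, and in log2 ratio between 2.37 and 3.38. Paired by the replicate number (replicate block), these differences were 6.35 and 3.02, each with an exact sign-flip permutation p of 0.25, the smallest that 3 pairs allow. The labels do not say that the numbers pair libraries; correlations of same-numbered libraries were 0.0739, 0.0259 and 0.143, and adult replicate 2 correlated best with macrophage replicate 1. With a pseudocount of 1 the adult minus P9 difference in log2 ratio reversed to -1.61 from 0.57, and the P14 minus P9 difference was -1.72, each with an unadjusted exact permutation p of 0.029, the P9 values being 0 or 1 region per library. Values for KO H3K4me1, WT PU.1, macrophage IRF8 and border macrophage genes were added to these alternatives after the data were seen. KO replicate 2 was the shallowest of the H3K27ac libraries, with 8572250 fragments, and the part of depth in the H3K27ac comparison was not tested.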
